A study of Mus musculus with 8 samples.

Results

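Ehf, Elf3, Spdef, Etv1, Etv4, Etv5, Etv6, Ets1, Ets2 and Erf code for transcription factors of the ETS family. They were chosen by symbol, and all 10 were found among the 24537 genes of a raw count table from pancreatic tumours of the mouse. RNA was sequenced from cells that had been sorted for the epithelial surface protein EpCAM, with 1 library for each of 8 tumours of FVB/NJ mice aged 44 to 49 days. Lifr codes for the receptor chain that binds leukaemia inhibitory factor, and the 4 tumours labelled KO came from mice with 2 floxed Lifr alleles (f/f). Of the 4 tumours labelled WT, replicates 1 and 2 carried 1 floxed Lifr allele (f/+) and replicates 3 and 4 carried none (+/+). All 8 mice shared, among their alleles, floxed Trp53 (f/f), a luciferase reporter at Rosa26 (LSL-Luc) and Pdx1-Cre, a recombinase driven by a promoter of pancreatic epithelium, so that cells without Cre activity keep their floxed alleles intact. The comparison asks how these genes differ between sorted cells of tumours labelled KO and tumours labelled WT.

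ETS factors bind DNA with a GGAA core through a shared ETS domain. Ehf, Elf3 and Spdef are found mainly in epithelia, where Elf3 and Ehf act in differentiation and, in mouse gut and airway, Spdef acts in mucus-secreting cells. Etv1, Etv4 and Etv5 form the PEA3 group, which is induced by receptor tyrosine kinases and RAS signalling and held down by the repressor Capicua. Ets1 and Ets2 are activators phosphorylated by ERK, while Etv6 and Erf are repressors, and Erf leaves the nucleus when ERK phosphorylates it. RAS signalling is chronically active in most pancreatic ductal cancers, which is why the RAS-responsive members are of interest in this tissue.

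Promoter windows of members that fell (Elf3, Spdef), rose (Etv1) or did not pass the test (Etv5) are shown so that the start sites behind the counts can be compared. RefSeq windows of GRCm38.p6, the assembly also called mm10, running from 250 bases before to 50 bases after a start site, matched 7 of the 10 by symbol (Elf3, Spdef, Etv1, Etv5, Etv6, Ets2 and Erf). In all 7 the start site is that of the counted transcript. They lie at chr1:135258423-135258722, minus strand (Elf3), chr17:27728902-27729201, minus strand (Spdef), chr12:38779832-38780131, plus strand (Etv1) and chr16:22439521-22439820, minus strand (Etv5). Each is written 5′ to 3′ on the strand of its gene, with every GGAA, or TTCC where the core lies on the other strand, in capitals.
Elf3: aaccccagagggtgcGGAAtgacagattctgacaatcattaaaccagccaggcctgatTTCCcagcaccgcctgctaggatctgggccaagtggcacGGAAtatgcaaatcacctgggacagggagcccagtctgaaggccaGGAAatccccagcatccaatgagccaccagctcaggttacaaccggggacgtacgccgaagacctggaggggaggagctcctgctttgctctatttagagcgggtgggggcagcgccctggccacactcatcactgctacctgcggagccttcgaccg
Spdef: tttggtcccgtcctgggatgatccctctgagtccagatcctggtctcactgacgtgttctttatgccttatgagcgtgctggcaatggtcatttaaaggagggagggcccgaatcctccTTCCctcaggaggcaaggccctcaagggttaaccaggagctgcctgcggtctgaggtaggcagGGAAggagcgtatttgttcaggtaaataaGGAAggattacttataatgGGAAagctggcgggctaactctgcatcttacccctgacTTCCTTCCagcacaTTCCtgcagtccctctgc
Etv1: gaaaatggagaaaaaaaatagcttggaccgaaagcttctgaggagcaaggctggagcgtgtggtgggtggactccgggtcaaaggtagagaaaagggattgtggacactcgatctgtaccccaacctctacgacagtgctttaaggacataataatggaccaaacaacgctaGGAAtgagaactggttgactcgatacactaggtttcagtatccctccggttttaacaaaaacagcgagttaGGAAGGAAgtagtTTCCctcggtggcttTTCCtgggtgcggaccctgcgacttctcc
Etv5: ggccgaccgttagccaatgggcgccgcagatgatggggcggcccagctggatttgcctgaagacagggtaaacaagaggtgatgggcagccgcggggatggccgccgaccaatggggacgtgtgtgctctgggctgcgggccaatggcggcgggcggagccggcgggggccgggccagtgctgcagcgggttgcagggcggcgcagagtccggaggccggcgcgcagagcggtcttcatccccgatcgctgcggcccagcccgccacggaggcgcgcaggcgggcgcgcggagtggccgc
The core GGAA was found on either strand 4 times in the Elf3 window, 7 times in the Spdef window, 5 times in the Etv1 window and 0 times in the Etv5 window. Of 32841 such windows of all genes 96.0% held it, with a median of 3 matches, so a match sets no window apart. Longer words were rare in all windows and nearly absent here. CCGGAAGT (3.89% of all windows), a longer ETS word, the Capicua words TGAATGAA (1.30%) and TGAATGGA (1.21%), and TGANTCA, the word read by AP-1 factors (7.81%), had 0 matches in the 7 windows. TTCNNNGAA, the word read by STAT factors (8.30%), matched in 1 of them, that of Etv6. CCGGAAGT contains the GGAA core, and a STAT match that has GGAA at its end also overlaps it.

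Counts summed to between 14938875 and 22698340 per tumour, and the members had between 107 (Etv1) and 6962 (Ets2) counts in a tumour. Levels below are counts per 1000000 (CPM) scaled by the trimmed mean of M-values (TMM). The targeted gene went against its label: Lifr was at 157, 205, 150 and 219.6 CPM in KO replicates 1 to 4 and at 126, 93.7, 71.8 and 99.6 CPM in WT replicates 1 to 4. The tag count of a transcript says nothing of whether a floxed exon was lost. Each direction below therefore rests on the labels. The label of epithelial cells was checked with 28 epithelial genes, all of them detected, which took 0.427% to 0.584% of counts in tumours labelled KO, against 0.847% to 1.18% in tumours labelled WT. Markers of macrophages (16 genes, none at 0) took 2.36% to 2.92% against 1.08% to 1.79%, and shared leukocyte markers (12 genes, none at 0) took 0.469% to 0.542% against 0.239% to 0.361%. Acinar genes (12, with 1 at 0) took 0.172% to 3.52% against 0.0441% to 0.913%, and fibroblast genes (10, none at 0) 0.0736% to 0.402% against 0.0429% to 0.160%. The part of these shares in the results below was tested only by the scaling to the epithelial list. In bulk RNA fewer cells of a type and less RNA per cell cannot be told apart.

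Most of the 10 ETS genes described were lower in the tumours labelled KO under TMM scaling. Of the 10, 6 fell (Ehf, Elf3, Spdef, Etv4, Ets1 and Erf), 1 rose (Etv1) and 3 did not pass the test (Etv5, Etv6 and Ets2), taking as threshold an adjusted p of 0.05 in edgeR's quasi-likelihood test, with Benjamini-Hochberg adjustment over all 14728 tested genes. Of all tested genes 10.8% fell and 11.1% rose, 21.8% in all. All 4 tumours labelled KO lay below all 4 labelled WT for 6 members, against 12.3% of tested genes, and the groups did not overlap for 7 members, against 25.5%. The median log2 fold change of the 10 (KO minus WT) was −0.45, beside 0.011 over all tested genes. The direction depended on the scaling: with libraries scaled to the summed counts of the epithelial list, which moved the median of all genes to 0.82, only Spdef was called lower, 5 members were called higher and the median of the 10 was 0.35. Under that scaling 10772 of the 14728 tested genes were called, 98.9% of them higher, so the 5 do not set the members apart. With 1 tumour left out, between 4 and 6 members were called lower, and 3 were without KO replicate 1 and WT replicate 2 together, the tumours of each group with the highest share of acinar RNA. The number called higher was between 0 and 2. Over all tested genes 1755 to 3241 were called with 1 tumour left out. Without KO replicate 1 and WT replicate 2 together 1892 of 14649 were called.

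**Figure D1:**
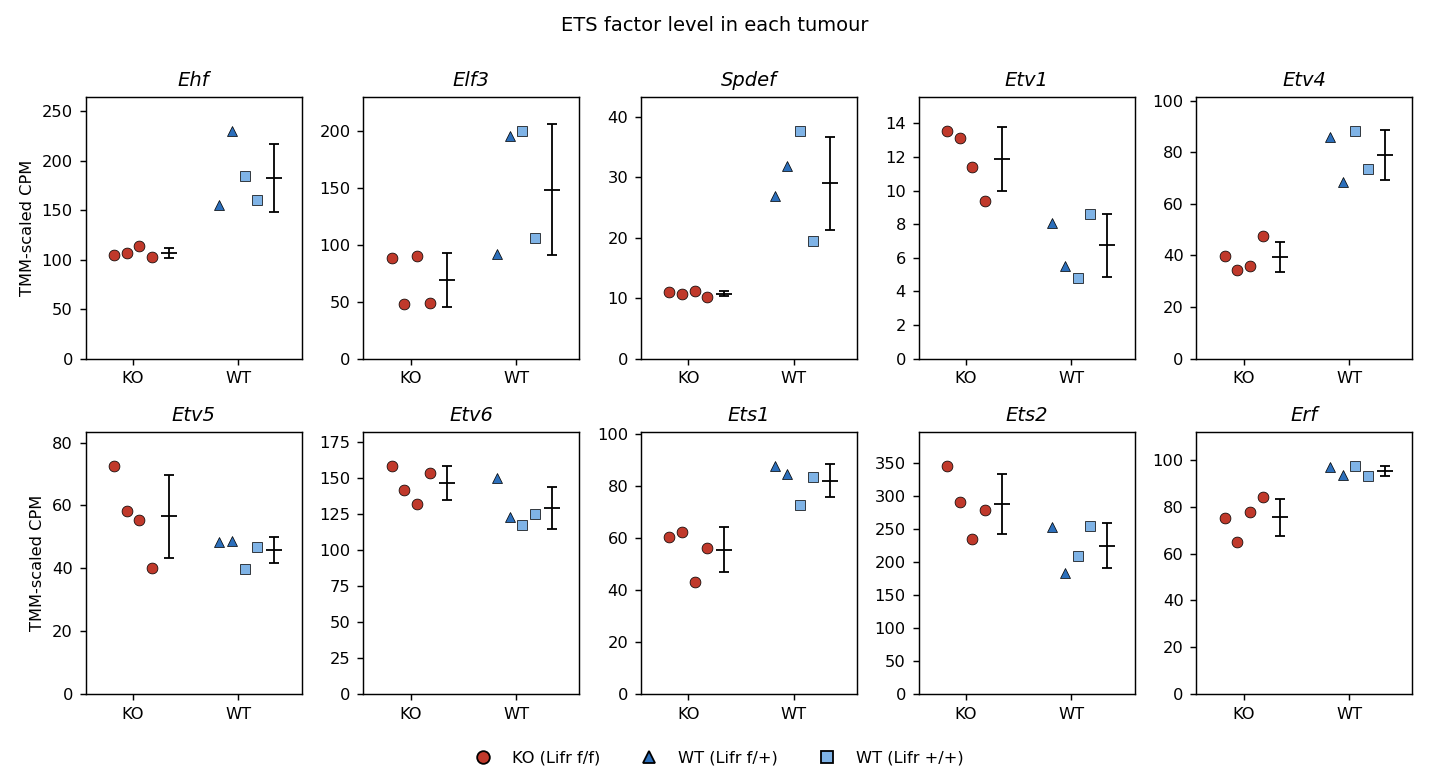
TMM-scaled CPM of each of the 10 ETS genes (vertical axis from 0, separate for each gene) in the 4 tumours labelled KO (circles) and the 4 labelled WT (triangles f/+, squares +/+). The bar beside each group is mean ± SD. Ehf, Elf3, Spdef, Etv4, Ets1 and Erf show every circle below every WT symbol, Etv1 shows the opposite, and Etv5, Etv6 and Ets2 overlap.

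Spdef (mm10 chr17:27714447-27728951, minus strand), the factor of mucus-secreting cells, had the largest fall of the 10. It was at 10.99, 10.6, 11.2 and 10.2 CPM in KO replicates 1 to 4 and at 26.9, 31.9, 37.7 and 19.5 CPM in WT replicates 1 to 4. The tumours labelled KO were nearly level with each other, while those labelled WT ranged widely and all lay higher. The means were 10.7 ± 0.449 CPM in tumours labelled KO and 29.0 ± 7.72 CPM in tumours labelled WT (SD, n = 4 each), and the log2 fold change was −1.43 ± 0.19 (SE, edgeR adjusted p = 0.00440). Spdef was called lower under each of 18 alternatives of processing or left-out tumours, with values from −1.61 to −0.60. The value nearest 0 came from scaling to the epithelial list (edgeR adjusted p = 0.0160, range over the alternatives 4.8e-10 to 0.0329).

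Ehf (chr2:103263433-103303196, minus strand), an epithelial factor, was at 105, 107, 114 and 102 CPM in KO replicates 1 to 4 and at 155, 230.1, 184 and 160 CPM in WT replicates 1 to 4. The groups did not overlap, and the spread was again far smaller in the tumours labelled KO (106.9 ± 5.03 CPM) than in those labelled WT (182 ± 34.2 CPM; SD, n = 4 each). Ehf fell by a log2 fold change of −0.77 ± 0.13 (edgeR adjusted p = 0.00607). With libraries scaled to the summed counts of the epithelial list it was at 0.063 and not called (edgeR adjusted p = 0.716, range over the alternatives 5.1e-07 to 0.716). The median of the epithelial list itself was 0.15 under that scaling and −0.69 under TMM.

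Elf3 (chr1:135253574-135258472, minus strand), which acts in epithelial differentiation, varied most among the members that fell. It was at 88.0, 47.5, 90.0 and 48.4 CPM in KO replicates 1 to 4 and at 91.8, 195, 199.7 and 106 CPM in WT replicates 1 to 4. KO replicates 1 and 3 came close to WT replicate 1, and WT replicates 2 and 3 lay well above WT replicates 1 and 4. The means were 68.5 ± 23.7 CPM in tumours labelled KO and 148 ± 57.4 CPM in tumours labelled WT (SD, n = 4 each), or a log2 change of −1.11 ± 0.33 (edgeR adjusted p = 0.0418). Leaving out KO replicate 1, 2 or 4 or WT replicate 2 or 3 ended the call (log2 fold change −1.28 to −0.94, highest adjusted p = 0.113), and with scaling to the epithelial list the value was −0.27 (edgeR adjusted p = 0.389). The call also ended without KO replicate 1 and WT replicate 2 together and with only f/+ or only +/+ controls. In all, 9 of 18 alternatives lost it. WT replicates 2 and 3 also had the highest shares of epithelial counts (1.18% and 1.01%, against 0.930% and 0.847% in WT replicates 1 and 4). The tumours labelled KO did not follow this order. Their epithelial shares were 0.499%, 0.427%, 0.489% and 0.584% in replicates 1 to 4, highest in replicate 4, where Elf3 was at 48.4 CPM. The part of epithelial RNA content in the Elf3 difference was not tested beyond that scaling.

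The PEA3 genes moved apart. Etv4 fell, Etv1 rose, and Etv5 did not pass the test. Etv4 (chr11:101769748-101785310, minus strand) was at 39.7, 34.3, 35.7 and 47.5 CPM in KO replicates 1 to 4 and at 85.8, 68.3, 88.3 and 73.6 CPM in WT replicates 1 to 4, with no overlap. The means were 39.3 ± 5.92 CPM in tumours labelled KO and 79.0 ± 9.61 CPM in tumours labelled WT (SD, n = 4 each), or a log2 change of −1.005 ± 0.13 (edgeR adjusted p = 0.00440). Etv4 was called lower in 17 of 18 alternatives, the exception being scaling to the epithelial list, where it was at −0.22 (edgeR adjusted p = 0.221, range over the alternatives 9.0e-10 to 0.221).

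Etv1 (chr12:38780082-38868215, plus strand) was at 13.6, 13.1, 11.4 and 9.40 CPM in KO replicates 1 to 4 and at 8.07, 5.54, 4.79 and 8.59 CPM in WT replicates 1 to 4. Every tumour labelled KO lay above every tumour labelled WT, though KO replicate 4 and WT replicate 4 were close. The means were 11.9 ± 1.90 CPM in tumours labelled KO and 6.75 ± 1.87 CPM in tumours labelled WT (SD, n = 4 each), or a log2 change of 0.82 ± 0.22 (edgeR adjusted p = 0.0313). The call ended when KO replicate 1, 2 or 3 or WT replicate 2 or 3 was left out (log2 fold change 0.68 to 0.84, highest adjusted p = 0.0855), and with library totals alone (0.64, adjusted p = 0.0542). It also ended with limma on the deposited FPKM values and with only f/+ or only +/+ controls. Without KO replicate 1 and WT replicate 2 together it ended too (edgeR adjusted p = 0.148). In all, 11 of 18 alternatives lost the call, each with Etv1 still higher. Within the WT label Etv1 was higher in replicates 1 and 4, which also had the higher macrophage shares (1.43% and 1.79%, against 1.08% and 1.10% in replicates 2 and 3). The tumours labelled KO did not follow this order. Their macrophage shares were 2.77%, 2.92%, 2.36% and 2.77% in replicates 1 to 4, while Etv1 was lowest in replicate 4. The part of macrophage RNA in the Etv1 difference was not tested.

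Etv5 (chr16:22381313-22439570, minus strand) was at 72.5, 58.2, 55.3 and 40.2 CPM in KO replicates 1 to 4 and at 48.5, 48.6, 39.9 and 46.8 CPM in WT replicates 1 to 4. KO replicate 4 lay inside the range of the tumours labelled WT and the other tumours labelled KO lay above it. The log2 difference was 0.30 ± 0.16, with a 95% interval of −0.073 to 0.67 (edgeR adjusted p = 0.225). It passed the test without KO replicate 4 (0.42, adjusted p = 0.0485) and when scaled to the epithelial list (1.12, adjusted p = 0.00103), with a range over the alternatives of 0.00103 to 0.685.

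Because both genes of a ratio come from the same library, a ratio of counts within a tumour does not depend on scaling. The ratio of Etv4 to Etv5 counts was 0.548, 0.590, 0.646 and 1.18 in KO replicates 1 to 4 and 1.77, 1.41, 2.22 and 1.57 in WT replicates 1 to 4, with KO replicate 4 nearest to the tumours labelled WT and no overlap. The mean log2 ratio was −0.50 in tumours labelled KO and 0.78 in tumours labelled WT, a difference of −1.28. The ratio of Etv4 to Etv1 counts was 2.61 to 5.05 in tumours labelled KO and 8.56 to 18.4 in tumours labelled WT, a log2 difference of −1.85, and that of Ets1 to Ets2 was 0.176 to 0.215 in tumours labelled KO and 0.330 to 0.462 in tumours labelled WT, a log2 difference of −0.93. These ratios were picked after the values of their genes were seen, so they are given as a description, with no test.

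**Figure D2:**
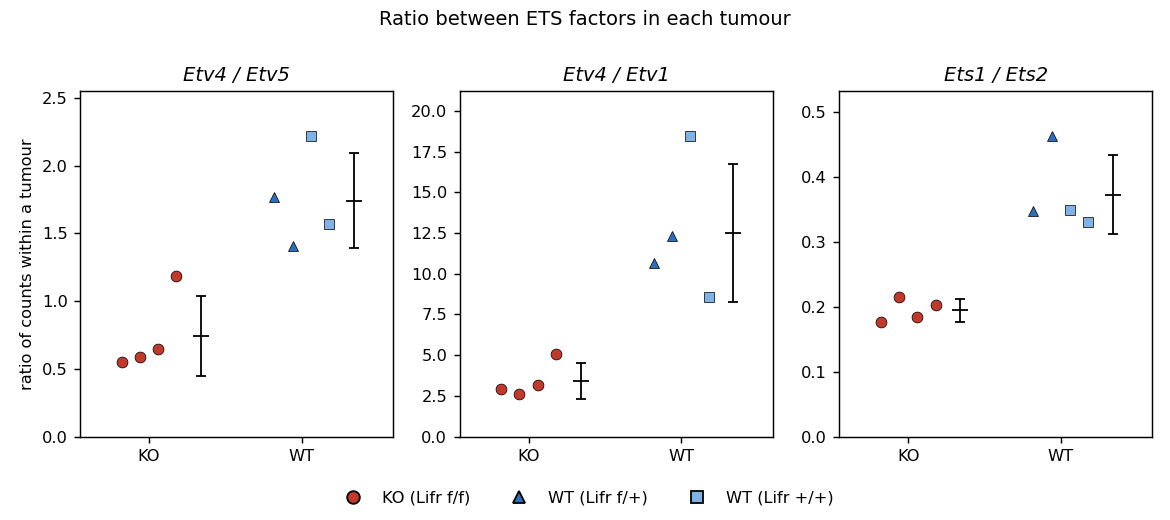
Ratio of raw counts of Etv4 to Etv5, Etv4 to Etv1 and Ets1 to Ets2 within each tumour (vertical axes from 0). Circles are tumours labelled KO, triangles f/+ and squares +/+ tumours labelled WT, and bars are mean ± SD. All 4 tumours labelled KO lie below all 4 labelled WT in each of the 3 panels, and KO replicate 4 (1.18) is the highest circle of the Etv4 to Etv5 panel.

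Ets1 and Ets2, the ERK-phosphorylated activators, also differed from each other. Ets1 (chr9:32696042-32757820, plus strand) was at 60.5, 62.5, 43.0 and 56.3 CPM in KO replicates 1 to 4 and at 87.7, 84.6, 72.9 and 83.6 CPM in WT replicates 1 to 4, with no overlap. It fell to 55.6 ± 8.77 CPM in tumours labelled KO, against 82.2 ± 6.45 CPM in tumours labelled WT (SD, n = 4 each), or a log2 change of −0.56 ± 0.12 (edgeR adjusted p = 0.0141), whereas it was at 0.25 and not called when scaled to the epithelial list (adjusted p = 0.238, range over the alternatives 0.000544 to 0.238). With only +/+ tumours as controls Ets1 was at −0.49 and not called (edgeR adjusted p = 0.0996). Without KO replicate 1 and WT replicate 2 together it was at −0.59 and not called (edgeR adjusted p = 0.0501). Ets1 is also expressed by lymphocytes and endothelial cells. In these libraries 9 T cell genes took 0.00336% to 0.00531% of counts in tumours labelled KO and 0.00193% to 0.00519% in tumours labelled WT. For 10 endothelial genes the shares were 0.00746% to 0.0123% against 0.00536% to 0.0101%. Such shares do not measure how much Ets1 RNA these cells gave, and their part in the Ets1 level or difference was not tested.

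Ets2 (chr16:95702407-95721049, plus strand) was at 344.6, 291, 234 and 279 CPM in KO replicates 1 to 4 and at 252, 183, 209 and 253 CPM in WT replicates 1 to 4. KO replicate 3 lay within the range of the tumours labelled WT. The log2 difference was 0.36 ± 0.15 (95% interval 0.021 to 0.69, unadjusted p = 0.0399, edgeR adjusted p = 0.119) and was not called except with scaling to the epithelial list (1.14, adjusted p = 0.00101, range over the alternatives 0.00101 to 0.419). WT replicates 1 and 4, the higher of the tumours labelled WT, were the same tumours in which Etv1 and the macrophage share were higher. Among tumours labelled KO the macrophage share was lowest in replicate 3 (2.36%), as was Ets2. It was highest in replicate 2 (2.92%), where Ets2 was at 291 CPM. The part of macrophage RNA in the Ets2 difference was not tested.

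Of the repressors, Erf fell slightly and Etv6 did not pass. Erf (chr7:25242560-25250758, minus strand) was at 75.1, 64.9, 77.9 and 84.2 CPM in KO replicates 1 to 4 and at 97.0, 93.4, 97.4 and 93.2 CPM in WT replicates 1 to 4. The tumours labelled WT were nearly level, and all of them lay above the tumours labelled KO. Erf averaged 75.5 ± 8.01 CPM in tumours labelled KO and 95.2 ± 2.23 CPM in tumours labelled WT (SD, n = 4 each), or a log2 change of −0.33 ± 0.084 (edgeR adjusted p = 0.0236). Its direction was turned by scaling to the epithelial list, where it was called higher (0.46, adjusted p = 0.00976), and it was no longer called with KO replicate 1 or WT replicate 1 or 3 left out (−0.34 to −0.32, highest adjusted p = 0.0614, range over the alternatives 0.00268 to 0.113). Erf was also not called without KO replicate 1 and WT replicate 2 together or with only f/+ or only +/+ controls. Etv6 (chr6:134035700-134270147, plus strand) was at 158, 142, 132 and 154 CPM in KO replicates 1 to 4 and at 150.4, 123, 118 and 125 CPM in WT replicates 1 to 4, a log2 difference of 0.18 ± 0.097 (edgeR adjusted p = 0.215). Its groups overlapped, and it was called only with scaling to the epithelial list (0.98, adjusted p = 0.000607, range over the alternatives 0.000607 to 0.988).

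**Figure D3:**
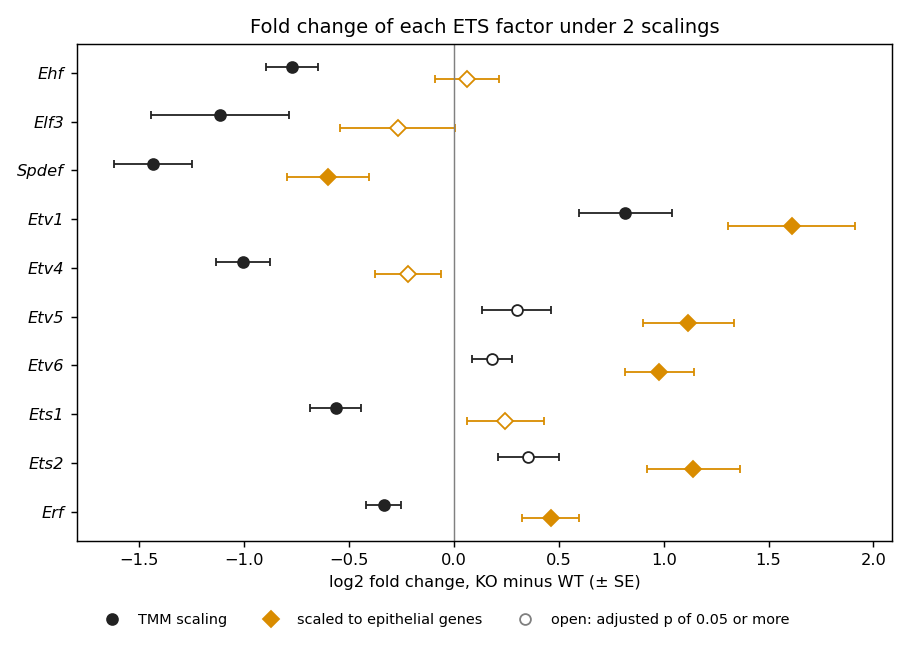
Log2 fold change of each ETS gene, KO minus WT, with its SE (horizontal axis), from libraries scaled by TMM (black circles) and to the epithelial list (orange diamonds); filled symbols were called at an edgeR adjusted p under 0.05. Under TMM Ehf, Elf3, Spdef, Etv4, Ets1 and Erf lie below 0, and under the epithelial scaling Ehf (0.063), Ets1 (0.25) and Erf (0.46) turn above 0 while Spdef (−0.60) stays called lower.

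Within the WT label the 2 f/+ and 2 +/+ tumours overlapped for 8 of the 10 members. The exceptions were Etv5 and Ets1, for which both f/+ tumours lay above both +/+ tumours, and no test was made on 2 against 2. Groups of 2 separate easily, and the share of all tested genes that did so was not computed. The counts are therefore a description and set neither the 8 nor the exceptions apart. With only the f/+ tumours as controls 4 members were called lower, and with only the +/+ tumours 3 were. Over all genes 1926 of 15104 tested were called in either direction with the f/+ controls, 52.9% of them higher. With the +/+ controls 1106 of 15065 were called, 46.5% of them higher. The 2 comparisons share the tumours labelled KO.

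Levels of different genes were compared per length, on the deposited FPKM values, which carry no TMM scaling. In the tumours labelled KO Ets2 led (42.2 ± 5.20 FPKM), followed by Elf3 (18.3 ± 6.42), Etv6 (13.7 ± 0.710), Ehf (12.8 ± 0.996), Erf (11.3 ± 1.30), Etv4 (8.87 ± 1.28), Etv5 (7.75 ± 1.65), Ets1 (5.75 ± 0.790), Spdef (3.10 ± 0.183) and Etv1 (1.58 ± 0.230 FPKM; SD, n = 4). From Elf3 down to Ets1 neighbours in this order did not differ beyond their ranges, whereas Ets2, Spdef and Etv1 stood apart from their neighbours. In the tumours labelled WT Elf3 led (45.1 ± 18.5 FPKM), followed by Ets2 (37.3 ± 4.60), Ehf (24.8 ± 5.77), Etv4 (20.1 ± 1.92), Erf (16.1 ± 0.547), Etv6 (13.6 ± 1.35), Ets1 (9.63 ± 0.895), Spdef (9.47 ± 2.63), Etv5 (7.15 ± 0.792) and Etv1 (1.03 ± 0.267 FPKM; SD, n = 4). There the ranges of Elf3 and Ets2, of Ets2 and Ehf, of Ehf and Etv4, of Ets1 and Spdef and of Spdef and Etv5 overlapped with the next gene in the order. For Elf3, Etv1 and Etv6 the FPKM table used another transcript than the count table.

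The makeup of the family shifted with these changes. Of the FPKM summed over 26 ETS genes, the 10 members held 39.1% to 43.6% in tumours labelled KO, against 51.1% to 61.0% in tumours labelled WT. Ehf, Elf3 and Spdef together held 9.21% to 14.5% in tumours labelled KO and 17.5% to 31.3% in tumours labelled WT, and the PEA3 genes held 5.74% to 6.31% against 8.06% to 9.33%. Spi1, Spib and Spic, of which Spi1 codes for PU.1, a factor of myeloid cells, held 25.7% to 28.3% in tumours labelled KO and 12.4% to 20.8% in tumours labelled WT. Of the 16 other ETS genes 12 were tested, of which 4 rose, 0 fell and 8 did not pass, with a median log2 fold change of 0.13 (0.93 with scaling to the epithelial list and −0.048 with library totals alone). Over all tested genes 11.1% rose and 10.8% fell. Fli1, a factor of blood and endothelial cells, was at 80.3, 77.6, 67.0 and 69.7 CPM in KO replicates 1 to 4 and at 29.3, 23.1, 22.9 and 38.3 CPM in WT replicates 1 to 4 (log2 fold change 1.38 ± 0.17, edgeR adjusted p = 0.00440). Spi1 was at 242, 230.6, 196 and 226 CPM in KO replicates 1 to 4 and at 129, 90.6, 146 and 161 CPM in WT replicates 1 to 4 (0.76 ± 0.17, edgeR adjusted p = 0.0144), Etv3 rose by 0.62 ± 0.18 and Elf4 by 0.32 ± 0.077. Of the 16 macrophage genes 14 rose and 0 fell in the same comparison, with a median log2 fold change of 1.17, and of the 12 leukocyte genes 10 rose and 0 fell; their part in the rise of Fli1 and Spi1 was not tested.

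**Figure D4:**
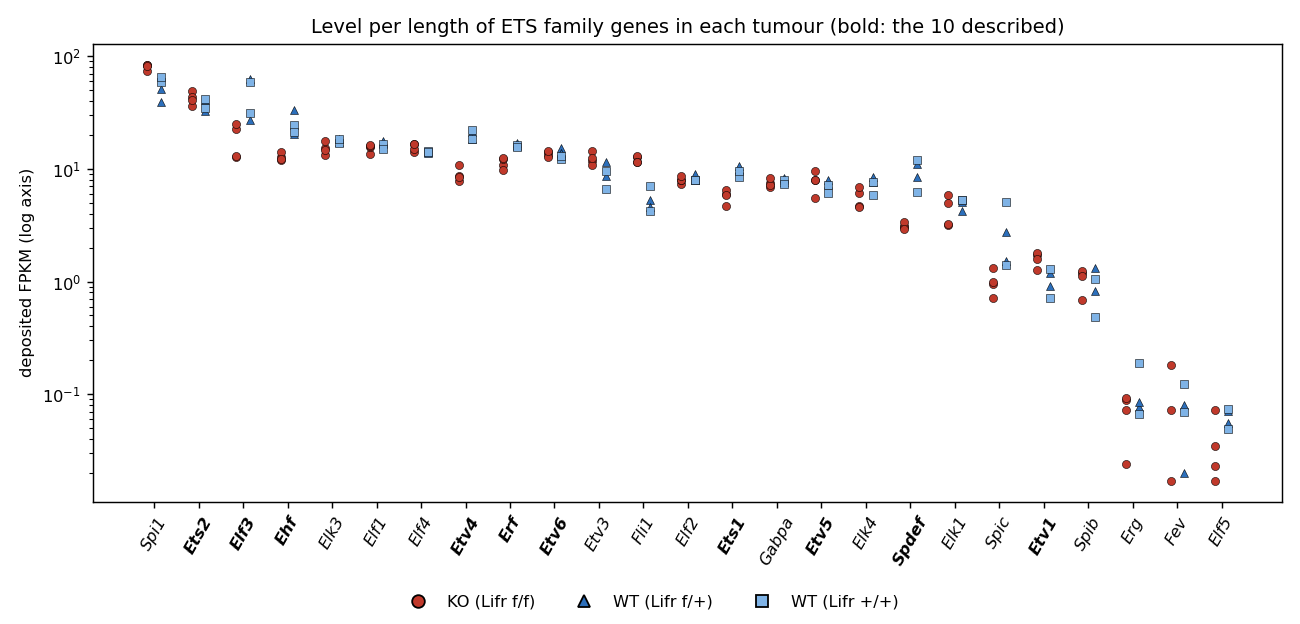
Deposited FPKM on a log axis of ETS family genes in each tumour, ordered by their mean over the 8 tumours, with the 10 described in bold. Circles are tumours labelled KO, drawn left of the triangles (f/+) and squares (+/+) of the tumours labelled WT. Values of 0 and Etv2, listed at 0 throughout, are not drawn. The circles of Ehf, Elf3, Spdef, Etv4 and Ets1 sit below their neighbours, and those of Spi1 and Fli1 above.

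Outputs of RAS-MAPK signalling other than ETS genes also leaned lower under TMM scaling. Of 22 such genes 8 fell, 1 rose and 13 did not pass, with a median log2 fold change of −0.53 (0.28 with scaling to the epithelial list). Of all tested genes 10.8% fell and 11.1% rose. The gene that rose was Spred1 (0.33 ± 0.084, edgeR adjusted p = 0.0246). It was at 147.5 ± 6.35 CPM in tumours labelled KO and 117 ± 11.6 CPM in tumours labelled WT (SD, n = 4 each). Spred3, an inhibitor of RAS activation, was at 15.9 ± 4.07 CPM in tumours labelled KO and 39.7 ± 4.89 CPM in tumours labelled WT (SD, n = 4 each, log2 fold change −1.31 ± 0.18). The ERK phosphatase gene Dusp4 (−0.79 ± 0.073), the cyclin D1 gene Ccnd1 (−0.95 ± 0.16) and the ephrin receptor gene Epha2 (−0.86 ± 0.17) fell with it (edgeR adjusted p = 0.00440 for Spred3 and Dusp4, 0.00664 for Ccnd1 and 0.0105 for Epha2). Of 18 genes of the cascade from receptors to ERK, 4 fell, 1 rose and 13 did not pass, with a median of −0.036, which was 0.77 with scaling to the epithelial list. Of all tested genes 21.8% were called in either direction, and no test was made of the cascade list as a whole. The receptor genes Erbb2 (−0.91 ± 0.16) and Met (−0.47 ± 0.14) and the adaptor gene Shc1 (−0.31 ± 0.073) fell, and the adaptor gene Grb2 rose (0.43 ± 0.10). Of 7 genes that code for the Capicua complex or for the ubiquitin ligase that degrades PEA3 proteins, only Ddb1 was called (−0.37 ± 0.086), and Cic, which codes for Capicua itself, was at 268 ± 18.5 CPM in tumours labelled KO and 259 ± 31.9 CPM in tumours labelled WT (SD, n = 4 each, edgeR adjusted p = 0.759). Spred1 and Cic are outside the naming rule and were chosen after their values were seen.

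The mucous secretory genes, among which Spdef acts in mouse gut and airway, were lower in part. Of 19 tested 11 fell, 0 rose and 8 did not pass, with a median of −0.85, beside −0.69 for the epithelial list, of which 18 of 28 fell and 0 rose. With scaling to the epithelial list these medians were −0.0051 and 0.15. Over all tested genes 10.8% fell and 11.1% rose under TMM scaling. The lowest p-values belonged to Creb3l4, a transcription factor of the secretory pathway (6.04 ± 0.880 CPM in tumours labelled KO and 15.6 ± 2.83 CPM in tumours labelled WT, log2 fold change −1.36 ± 0.17), the mucin glycosyltransferase genes Gcnt3 (−1.18 ± 0.18) and Galnt12 (−0.85 ± 0.17), and Ern2, a stress sensor of mucous cells (−1.40 ± 0.26; SD and SE, n = 4 each, highest edgeR adjusted p = 0.0106). Among the epithelial genes, Lsr (−0.62), Dsp (−0.73), Epcam (−0.88) and Esrp1 (−0.93) had the lowest p-values.

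**Figure D5:**
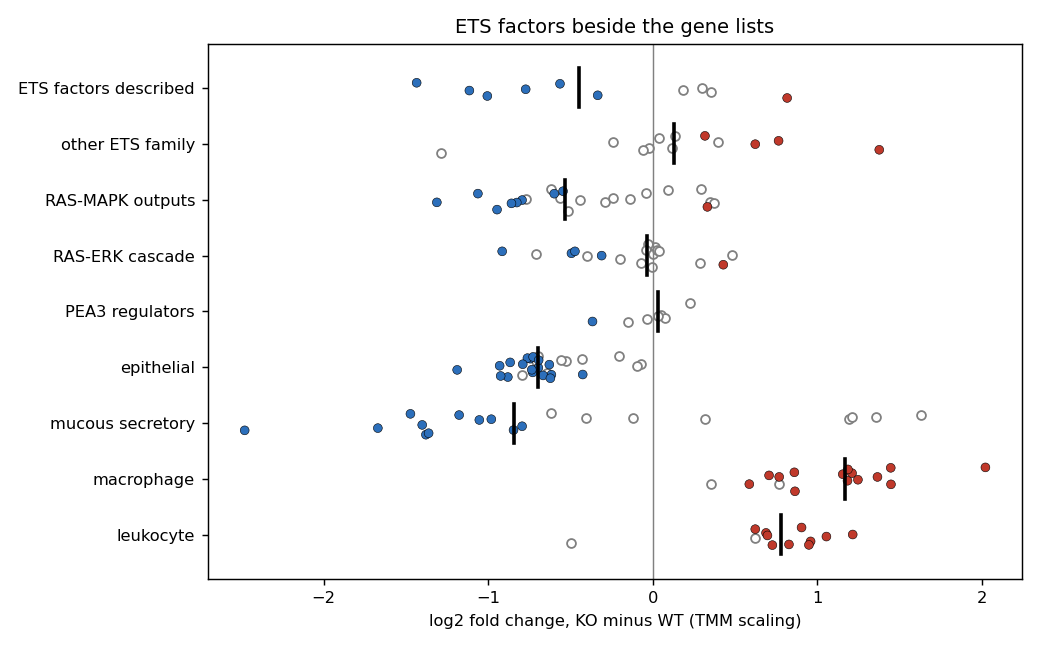
Log2 fold change, KO minus WT under TMM scaling (horizontal axis), of every tested gene of 9 lists. Filled points were called by edgeR (red higher, blue lower), open points were not, and vertical bars are list medians. The 10 ETS genes have a median of −0.45, between the epithelial list (−0.69) and the other ETS genes (0.13), and under scaling to the epithelial list the same 3 medians are 0.35, 0.15 and 0.93.

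The genes outside the ETS family whose profiles were most like those of the 4 members with the smallest p were found by the root mean square difference in gene-centred log2 CPM over the 8 tumours. Nearest to Etv4, which itself had a root mean square deviation of 0.53, were Ctxn1 (0.079), Il17rd (0.095), which codes for an inhibitor of FGF and RAS-MAPK signalling, and Mpzl1 (0.097). Nearest to Spdef (0.74) were Tc2n (0.13), Creb3l4 (0.16) and Pllp (0.19). Ehf (0.41) was nearest to Plekha6 (0.060), Tmc4 (0.067) and Galnt12 (0.078), and Ets1 (0.33) to Schip1 (0.079), Adamts7 (0.093) and Eva1a (0.11). Creb3l4 and Galnt12 also stood in the mucous secretory list. Both fell, and nearness includes the group difference, so this is no separate support for a link.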

How the data were processed

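RNA of 8 EpCAM-sorted tumours was measured, with 1 library each. Groups were taken from the sample titles and Lifr genotypes from the labels. Replicate numbers follow the listed order and pair no tumours. Nothing in the labels gives batches. The labels treat each tumour as a separate mouse, so p-values measure the spread between tumours. FastQC 0.11.2, STAR 2.4.0k, HOMER, edgeR 3.6.8 and mm10 are listed, without roles, in the submitters' processing notes. Per the file headers, the deposited counts are raw tags in exons of mm10 RefSeq transcripts, made by HOMER (analyzeRepeats.pl, plus strand), 1 transcript per gene. The deposited FPKM table, per the file headers, is from that program as well, normalized to 1000000. Library strandedness is not given in the sources used here. No other gene of the table overlapped a member's transcript.

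The counts were fitted with edgeR 4.0.16 under R 4.3.3 (quasi-likelihood, TMM, filterByExpr with minimum count 10 and minimum total count 15), leaving 14728 genes, with Benjamini-Hochberg adjustment over all of them. Alternatives were DESeq2 1.42.0, limma 3.58.1 on log2(FPKM + 1) and log2(FPKM + 0.1) for genes of at least 0.5 FPKM in 4 tumours, other scalings, no filter, and left-out tumours. On simulated data with 14728 genes and 200 changed, the edgeR test for KO minus WT called 51 of 100 genes changed by a log2 of 1, 6 of 100 changed by 0.5, and 2 unchanged genes. In the data 3216 genes were called. With so few changed genes the adjustment is stricter in the simulation, so its rates do not give the power of the test on the data. The members and lists were chosen with earlier results of these data known. Genes named outside the 10 members were, in each list, up to 4 called genes with the smallest p, and the 3 nearest profiles of 4 members. Cic, Spred1, Agr2, Muc6, Tff3, Fcgbp and Clca1 fall outside this rule and were chosen after their values were seen. Cop1 was counted under its older symbol Rfwd2. An allele of the genotype is not reported here.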

Additional observations from a re-analysis of the deposited data

How the results depend on the processing

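Of all genes 3216 were called, 50.7% of them higher, and 22.5% were higher among 4008 calls with library totals alone, where the median over all genes was −0.17 in place of 0.011. The FPKM values gave 24.2% and 24.1% higher with a pseudocount of 1 and 0.1. The count of calls was 10772 with scaling to the epithelial list, 98.9% of them higher. It was 1892 without KO replicate 1 and WT replicate 2, 1926 with only f/+ and 1106 with only +/+ controls. With 1 tumour left out it was 1755 (without KO replicate 2) to 3241, with 2077 without WT replicate 3.

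Members called lower numbered 1 with scaling to the epithelial list, 3 without KO replicate 1 and WT replicate 2, and 3 with only +/+ controls. Members called higher numbered 5 with scaling to the epithelial list, 0 with library totals alone, with either FPKM pseudocount, without KO replicate 1 and WT replicate 2 and with only f/+ or only +/+ controls, and 0 to 2 with 1 tumour left out (2 without KO replicate 4, where Etv5 joined Etv1). The median of the 10 was −0.63 with library totals alone, 0.35 with scaling to the epithelial list, and −0.57 and −0.63 with FPKM pseudocounts of 1 and 0.1. Ehf, Ets1 and Erf were reversed by scaling to the epithelial list, at 0.063, 0.25 and 0.46. That scaling moved the median over all genes from 0.011 to 0.82, as the epithelial list took a smaller share of counts in tumours labelled KO. Causes of the other shifts were not tested. Over the 18 alternatives the direction was kept for the other 7 members. The call was kept in 18 for Spdef, 17 for Etv4, 17 for Ehf, 15 for Ets1, 11 for Erf, 9 for Elf3 and 7 for Etv1. No paired analysis was possible because the labels give no replicate numbers shared between the groups. The lowest count of a member in a tumour was 107, and the effect of depth was not tested.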

Other observations

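The mucous secretory list was divided in KO replicate 3. Of its 19 tested genes, 5 were higher there than in all other tumours, 11 were below all tumours labelled WT and 3 were neither. Tff3, Fcgbp and Clca1 of the 5, picked after their values were seen, are known from goblet cells of the gut. In KO replicate 3 Tff3, a trefoil peptide, was at 210.6 CPM, Fcgbp, a mucus-binding protein, at 1603 CPM, and Clca1, a secreted goblet cell protein, at 467 CPM. The other tumours labelled KO had 14.2 to 33.9 CPM of Tff3, 78.4 to 173 CPM of Fcgbp and 24.4 to 70.1 CPM of Clca1, and the tumours labelled WT had 16.3 to 40.0, 142 to 369 and 20.8 to 80.1 CPM. Spdef in KO replicate 3 was at 11.2 CPM, beside 10.2 to 10.99 CPM in the other tumours labelled KO. Creb3l4, Gcnt3, Galnt12 and Ern2 of the same list were among the 11, as were Agr2 and Muc6. None of Tff3, Fcgbp and Clca1 passed the test between the groups (edgeR adjusted p = 0.269 for Tff3, 0.386 for Fcgbp and 0.265 for Clca1).

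Elf3 split the tumours labelled KO into KO replicates 1 and 3 (88.0 and 90.0 CPM) and KO replicates 2 and 4 (47.5 and 48.4 CPM). The same tumours differed in acinar RNA, whose 12 genes took 3.52% and 2.38% of counts in KO replicates 1 and 3 and 0.760% and 0.172% in KO replicates 2 and 4, and in the mucous secretory list, with 0.192% and 0.355% against 0.106% and 0.0947%. The mucous share of KO replicate 3 includes the 5 genes that were highest in that tumour. Of these Fcgbp alone had 23104 of its 14938875 counts. The share without these 5 genes was not computed, so the mucous difference may rest on them. Ehf (105 and 114 against 107 and 102 CPM) and Spdef (10.99 and 11.2 against 10.6 and 10.2 CPM) differed far less between these tumours. No test was made on groups chosen from the data.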
